A study of Mus musculus with 2 samples.

Results

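Genes of the extracellular matrix and of the cells that make it were compared between small intestinal epithelial preparations of mice with and without miR-215, a microRNA of the gut epithelium. The 75 genes described were chosen by name from the 23284 listed: genes named as collagen alpha chains or laminin chains, and 22 further matrix, stromal marker and matrix protease genes. Of these, 43 were collagen genes and 10 were laminin genes. The mRNA of 1 wild-type preparation (miR-215+/+, here WT) and 1 knockout preparation (miR-215-/-, here KO) was sequenced, both labelled as small intestinal epithelia; the sources used here give neither strain, sex nor age, nor how many mice each preparation came from. Levels are in FPKM, which divides a gene's fragments by its transcript length and the library's depth, so those of long and short genes can be set side by side. With 1 library for each genotype no difference has a replicate check and no test between genotypes was possible. "Higher" and "lower" always mean KO against WT.

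The extracellular matrix of the gut wall has a pair of layers that matter here. The basement membrane is a thin sheet directly under the epithelium and around vessels and muscle cells, built from laminin trimers and a type IV collagen network that nidogens and the proteoglycan perlecan tie together. Beneath it lies the interstitial matrix, whose rope-like fibrils of collagens I, III and V are made by fibroblasts, with type VI collagen as a beaded network between the fibrils and the basement membrane. Epithelial cells make some basement membrane chains themselves, among them the laminin chains of hemidesmosomes, while fibrillar collagens are products of mesenchymal cells.

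The fibrillar collagens were higher in KO by 2.76-fold in summed FPKM, the basement membrane genes by 1.19-fold. That contrast depended largely on 2 genes, which were singled out with their values known. The epithelial laminin chain genes Lama3 and Lamb3 made up most of the basement membrane sum and were together nearly level between the libraries, at 49.5 FPKM in WT and 51 in KO. The other 19 basement membrane genes went from a sum of 6.52 to 15.8 FPKM, 2.43-fold, close to the fibrillar value as a sum. They were not alike. The type IV collagen genes among them were 5.11-fold higher, while Nid2, 34.6% of the WT sum of the 19, was 1.14-fold higher. Type VI collagen genes stood further apart than the fibrillar and basement membrane sums, at 6.76-fold.

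Stromal matrix transcripts were scarce in both libraries. The 75 genes summed to 198 FPKM in WT and 214 in KO, 0.0264% and 0.0313% of all FPKM, and the epithelial marker Epcam alone stood at 1539 and 1400. Fbln1, Lama3 and Lamb3 held 79.9% of the sum in WT and 59.2% in KO. Without those 3 genes, which were set aside with their values known, the sum was 39.8 and 87.4 FPKM. Of the 75, 29 reached 1 FPKM in either library, 46 did not and 6 of these were listed at 0 in both.

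Fragment numbers were estimated from the steps between low values and the annotated transcript lengths. A transcript of 2 kb at 1 FPKM corresponded to 17.9 fragments in WT and 18.6 in KO. Unless another scale is named, the fold of a gene is its ratio of FPKM, and its interval is the exact 95% Clopper-Pearson interval of the fragment numbers, which covers counting error only and not variation between mice or preparations. The targeted gene Mir215 was listed at 137 FPKM in WT and 0 in KO, over an annotated transcript of 112 nt; mRNA libraries do not measure the mature microRNA.

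On the log2(FPKM + 1) scale, 6 of the 75 genes were higher by 2-fold or more and 0 were lower by as much. Among all listed genes 0.661% were 2-fold higher and 1.01% were 2-fold lower. The 6 were Col6a1, Col3a1, Col6a2, Col4a1, Sparc and Bgn. The added 1 hides differences of genes under 1 FPKM: with 0.1 added instead, 30 of the 75 were 2-fold higher (4.43% of all listed genes were, and 3.38% were 2-fold lower), and with 5 added 0 were (0.258% and 0.515%). Scaled to equal sums of FPKM or to equal upper quartiles, 9 of the 75 were 2-fold higher, as were 0.898% and 0.799% of all listed genes. For this reason counting intervals were read too: for 35 of the 75 genes (46.7%) the interval of the fold lay above 1 and for 2 it lay below 1, against 11.1% and 15.8% of all listed genes with a transcript length. Among genes of the low levels typical here, with a mean of 0.1 to 10 FPKM, the shares were 16.5% and 11.3%. These genes were matched on level and not on transcript length. At a given FPKM a longer transcript has more fragments and a narrower interval, so the shares are not like for like. The median log2 ratio over all 75 genes was 0.24. It was 0.00 over all listed genes, a value set by the 6893 of them at 0 in both libraries. It was -0.05 over genes at 1 FPKM or more in either library and 0.04 over genes with a mean of 0.1 to 10 FPKM. Because the libraries hold mixtures of cells, more cells of a type and more RNA per cell cannot be told apart.

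**Figure D1:**
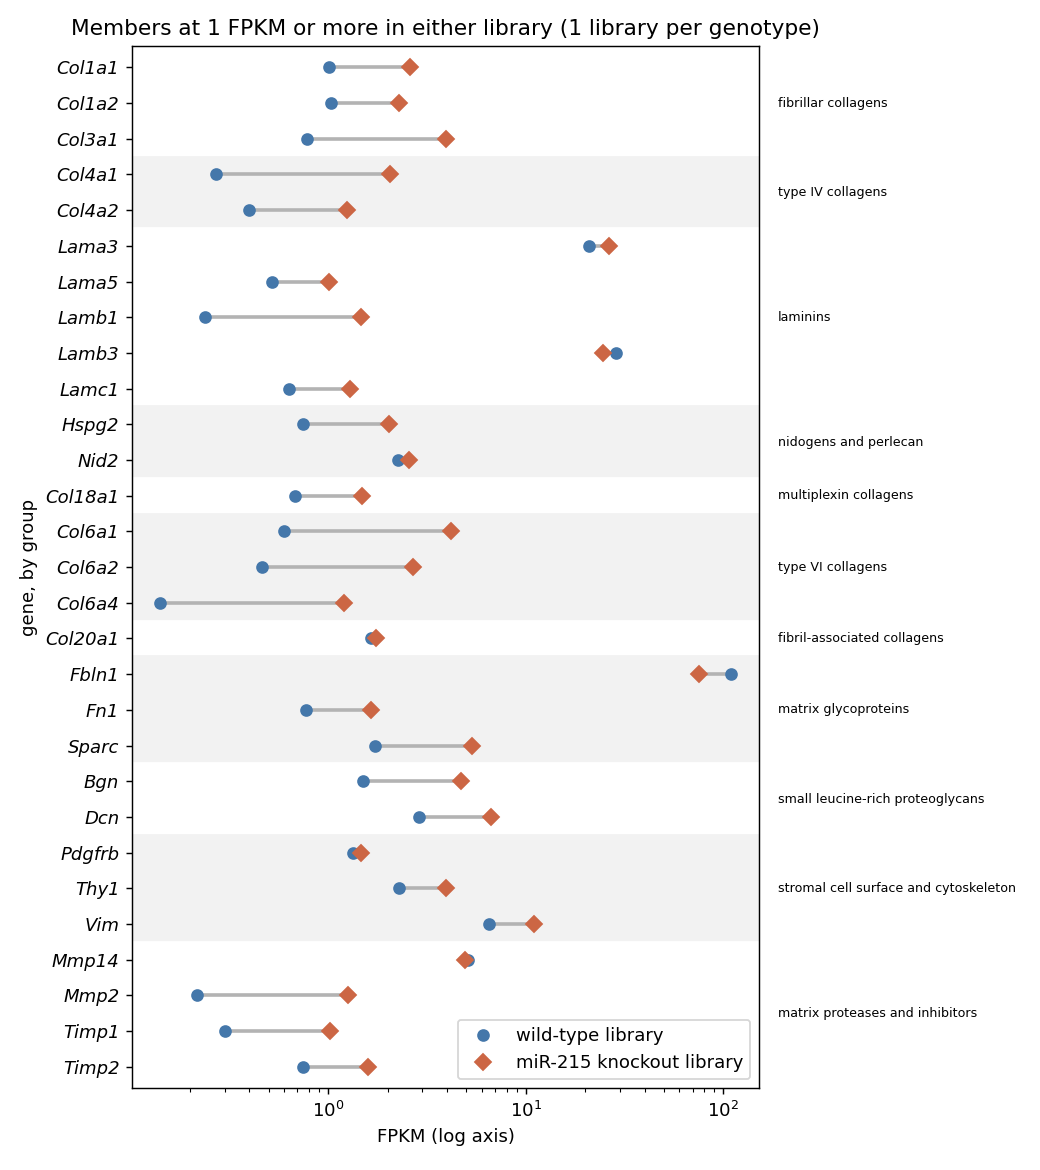
FPKM of the 29 genes that reached 1 FPKM in either library, on a log axis; circles are WT, diamonds KO, and rows are ordered by group. Fbln1, Lama3 and Lamb3 lie to the right with close values, while most other genes lie between 0.1 and 10 FPKM with the diamond to the right of the circle.

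Among the fibrillar collagens, the 3 chains of collagens I and III carried most of the signal. Col3a1, the homotrimer chain of collagen III (chromosome 1, 45311538 to 45349706, plus strand, mm10), was at 0.785 FPKM in WT and 3.97 in KO, about 39 and 205 fragments. It was 5.05-fold higher (interval 3.58 to 7.33). Col1a1, which supplies the alpha 1 chain of collagen I (chromosome 11, 94936224 to 94953042), was at 1.01 and 2.60 FPKM, 2.58-fold higher (1.88 to 3.63). Its partner Col1a2 (chromosome 6, 4504814 to 4541544) was at 1.04 and 2.28 FPKM, 2.2-fold higher (1.56 to 3.13). Collagen I is built from both chains, and the 2 mRNAs stayed near equal, with a Col1a1 to Col1a2 ratio of 0.967 in WT and 1.14 in KO.

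The minor fibrillar collagens were lower in level. Collagen V starts the fibrils of collagen I. Col5a2 was at 0.272 and 0.617 FPKM (2.27-fold, 1.26 to 4.26), and Col5a1 was at 0.35 and 0.530 FPKM with an interval that spanned 1 (0.907 to 2.59). Col5a3 had the opposite direction, 0.140 and 0.0672 FPKM, on about 8 and 4 fragments, and its interval also spanned 1. Col11a2, a chain of cartilage fibrils, was at 0.228 and 0.476 FPKM (1.02 to 4.54). Col27a1 was at 0.0414 and 0.266 FPKM, about 3 and 20 fragments (6.42-fold, 1.90 to 33.7). Col2a1, Col11a1 and Col24a1 rested on 3 fragments or fewer in each library. In all, 6 of the 11 fibrillar genes (54.5%) had intervals above 1 and none below. Of all listed genes with a transcript length, 11.1% were above and 15.8% below. The median log2 ratio of the 11 fibrillar genes was 0.27.

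The type IV collagens form the network of basement membranes. The main protomer, of 2 alpha 1 chains and 1 alpha 2 chain, is encoded by neighbouring genes read in opposite directions, Col4a1 (chromosome 8, 11198423 to 11312826, minus strand) and Col4a2 (11312805 to 11449287, plus strand), whose RefSeq starts lie 21 bases apart. Col4a1 was at 0.272 FPKM in WT and 2.07 in KO, 7.59-fold higher (4.49 to 13.7). Col4a2 was at 0.396 and 1.24 FPKM, 3.13-fold higher (1.92 to 5.19). The Col4a1 to Col4a2 ratio was thus 0.687 in WT, on about 16 and 23 fragments, and 1.67 in KO, on about 126 and 74. Col4a5, a chain of specialised basement membranes that also occurs in smooth muscle, had no value above 0 in WT and 0.142 FPKM in KO. That was about 8 fragments, 2.57-fold higher when WT is set to 3 fragments, and the counting interval began at 1.64. Col4a3, Col4a4 and Col4a6 rested on 1 fragment or fewer in each library. Summed, the 6 genes were at 0.680 and 3.47 FPKM, 5.11-fold higher, and 5.06-fold in summed fragments (3.59 to 7.28).

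Laminins are trimers of 1 alpha, 1 beta and 1 gamma chain, and the family divided by level. Lama3 and Lamb3, chains of epithelial basement membranes, were the abundant ones. Lama3 (chromosome 18, 12333819 to 12583013) was at 20.9 and 26.3 FPKM, 1.26-fold higher (1.18 to 1.35). Lamb3 (chromosome 1, 193207699 to 193343878) was at 28.6 and 24.7 FPKM, a fold of 0.862 (0.788 to 0.943). So these 2 chains did not share a direction. Scaled to equal sums of FPKM, Lamb3 had a fold of 0.946 and an interval that spanned 1.

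The other 8 laminin genes were all scarce, and none was lower. Lamb1, the beta chain of many laminin trimers, was at 0.239 and 1.47 FPKM, 6.15-fold higher (3.43 to 12.8). Lamc1, the gamma chain of the same trimers, was at 0.636 and 1.29 FPKM, 2.03-fold (1.42 to 3.03). The alpha chains differ by tissue. Lama5, whose chain lies under the villus epithelium, was at 0.523 and 1.01 FPKM (1.93-fold, 1.39 to 2.76). Lama4, the alpha chain of vessels and muscle, was at 0.0703 and 0.372 FPKM, about 4 and 22 fragments (1.80 to 21.1). Lamb2 was at 0.284 and 0.529 FPKM with an interval of 0.966 to 3.74. Lama1 stood at 0.0110 and 0.0424 FPKM and Lama2, the muscle alpha chain, at 0.0108 and 0.0208, each on 4 fragments or fewer, and Lamc3 was listed at 0 in both. The scarcest chain mRNA of laminin-511 was Lamb1 at 0.239 FPKM in WT and Lama5 at 1.01 in KO. That of laminin-521, the other Lama5 trimer, was Lamb2 at 0.284 and 0.529, and that of laminin-411 was Lama4 at 0.0703 and 0.372. Levels of the trimers themselves were not measured.

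The linkers of the basement membrane split as well. Nid1, a nidogen that bridges laminin and collagen IV, was at 0.158 and 0.964 FPKM, 6.10-fold higher (2.89 to 13.5). Its relative Nid2 was at 2.26 and 2.58 FPKM, a fold of 1.14 (0.864 to 1.5), so its interval spanned 1 on about 99 and 117 fragments. Hspg2, which encodes perlecan, was at 0.749 and 2.04 FPKM, 2.72-fold higher (2.15 to 3.48). The collagens XV and XVIII sit on the stromal side of basement membranes. Col15a1 was at 0.221 and 0.561 FPKM (2.54-fold, 1.23 to 5.63) and Col18a1, the source of endostatin, was at 0.679 and 1.49 FPKM (2.2-fold, 1.4 to 3.48).

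**Figure D2:**
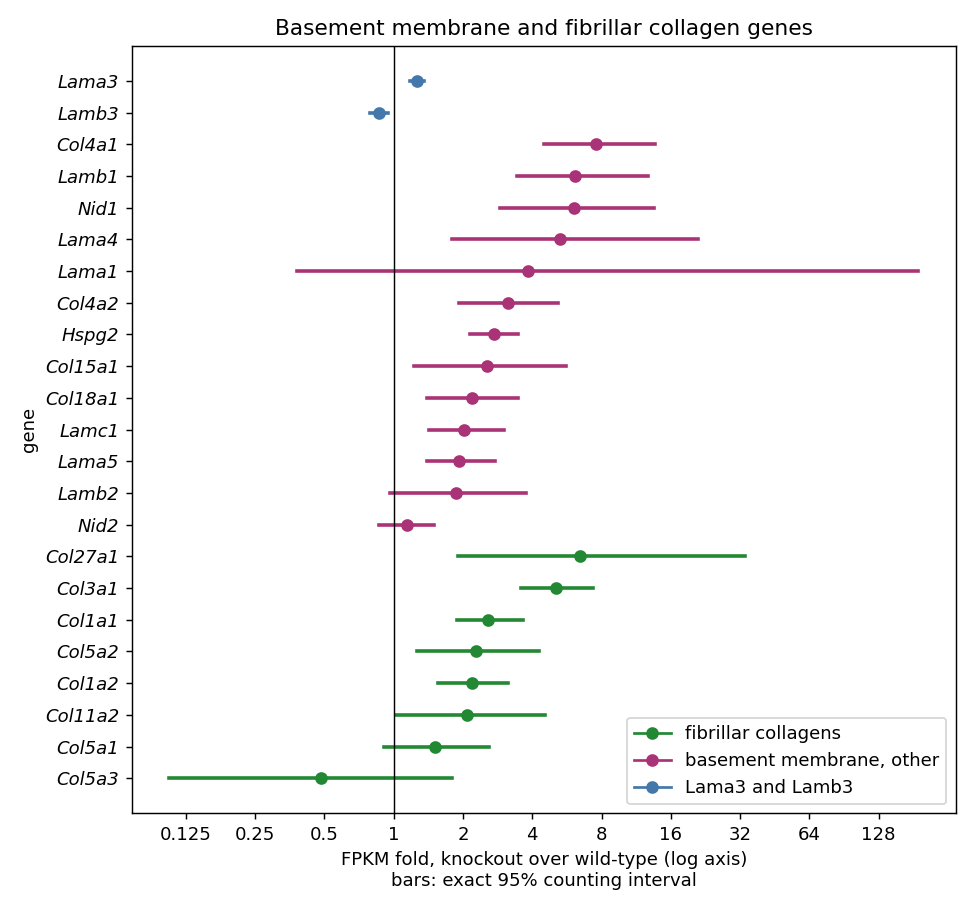
FPKM fold of the knockout over WT, on a log axis, for basement membrane and fibrillar collagen genes with more than 3 estimated fragments in either library and a value above 0 in both; bars are exact 95% counting intervals. Lama3 and Lamb3 lie close to 1 and the other basement membrane genes overlap the fibrillar genes, from Nid2 at 1.14 to Col4a1 at 7.59 against Col5a3 at 0.482 to Col27a1 at 6.42.

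Set side by side, 12 of the 21 basement membrane genes (57.1%) had counting intervals above 1 and 1 (4.76%), Lamb3, had an interval below 1. Of the 11 fibrillar genes, 6 (54.5%) were above and 0 below. Of all listed genes with a transcript length, 11.1% were above and 15.8% below. Among those with a mean of 0.1 to 10 FPKM the shares were 16.5% and 11.3%. The median log2 ratios were 0.32 over the basement membrane genes and 0.27 over the fibrillar genes. In summed fragments, in which long transcripts weigh more, the basement membrane fold was 1.3 (1.24 to 1.36) and the fibrillar fold 2.72 (2.32 to 3.19), a quotient of 0.478. Lama3 and Lamb3 were then set aside with their values known. Without them the basement membrane fold of summed fragments was 2.53 (2.25 to 2.84), and the quotient was 0.93. The 2 intervals then overlapped, where before they did not. Removing the most abundant gene of each group instead gave a quotient of 0.702. Among the basement membrane genes, the type IV collagens had a fold of 5.06 (3.59 to 7.28), above the fibrillar interval. No test of these differences between gene groups was made, since all the sums come from the same 2 libraries.

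Type VI collagen had the highest fold of all the groups, 6.96 in summed fragments (5.32 to 9.26). The type IV collagens were next at 5.06 (3.59 to 7.28), and these 2 intervals overlapped. The type VI trimer needs the chains of Col6a1, Col6a2 and Col6a3. Col6a1 (chromosome 10, 76708792 to 76726168, minus strand) was at 0.599 and 4.17 FPKM, 6.96-fold higher (4.44 to 11.4). Its neighbour Col6a2 (chromosome 10, 76595762 to 76623630) had 0.466 FPKM in WT and 2.69 in KO, 5.78-fold (3.49 to 10.1), and Col6a3 at 0.116 and 0.93 FPKM, 7.99-fold (4.14 to 17.3). The 3 intervals overlapped, and Col6a3 was the scarcest chain in both libraries. Col6a4, an alternative to it, was at 0.142 and 1.20 FPKM, 8.48-fold (4.40 to 19.9). Col6a5 rested on about 2 and 9 fragments and Col6a6 was listed at 0 in both libraries.

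The remaining collagens were mostly near the detection limit. Fibril-associated collagens sit on the surface of fibrils. Among the 9 of them, Col14a1 (0.148 and 0.507 FPKM, 1.60 to 8.16) and Col16a1 (0.0821 and 0.494 FPKM, 2.08 to 23.8) had intervals above 1. Col12a1 was at 0.152 and 0.267 FPKM with an interval of 0.943 to 3.38. Col20a1, the most abundant of this group at 1.65 and 1.74 FPKM, had a fold of 1.05 (0.760 to 1.47). Of the anchoring and membrane-spanning collagens, Col7a1, which forms anchoring fibrils under epithelia, was at 0.365 and 0.462 FPKM (0.758 to 2.09), and Col17a1, the hemidesmosome collagen, rested on 1 and 0 fragments. Col23a1, on about 2 and 14 fragments, was the only one of these 5 genes with an interval above 1. Col8a1 was at 0.209 and 0.0806 FPKM, and its interval spanned 1. The 4 collagens VIII, X and XXVIII together rested on 11 and 6 fragments.

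Of the 6 matrix glycoprotein genes, 3 (50%) had intervals above 1 and 1 (16.7%), Fbln1, below. Among all listed genes with a transcript length the shares were 11.1% and 15.8%. Fbln1 encodes fibulin-1, a glycoprotein of elastic fibres and basement membranes (chromosome 15, 85205949 to 85286535). It was the most abundant of the 75 genes at 109 FPKM in WT and 75.7 in KO, a fold of 0.698 (0.659 to 0.738), and so lower where most others were higher. Sparc, a collagen-binding glycoprotein (chromosome 11, 55394500 to 55423183), was at 1.72 and 5.34 FPKM, 3.11-fold higher (2.10 to 4.72). Fn1, fibronectin, was at 0.772 and 1.65 FPKM (2.13-fold, 1.53 to 2.98). Fbn1, the microfibril protein fibrillin-1, was at 0.0847 and 0.479 FPKM, about 8 and 47 fragments (2.65 to 13.9). The intervals of Fbln2 and of Postn, which encodes periostin, spanned 1.

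The small leucine-rich proteoglycans bind and space collagen fibrils. Bgn, biglycan (chromosome X, 73483602 to 73495933), was at 1.5 and 4.71 FPKM, 3.13-fold higher (2.08 to 4.72). Dcn, decorin, was at 2.87 and 6.66 FPKM, 2.32-fold (1.63 to 3.38). Lum, lumican, rested on about 1 and 7 fragments, and its interval spanned 1. The 3 genes together went from 4.43 to 11.7 FPKM.

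Markers of the cells that make this matrix differed among themselves. Pdgfra, the receptor that marks most intestinal fibroblasts, was at 0.0484 and 0.638 FPKM, about 3 and 41 fragments, a fold of 13.2 (4.20 to 66.5). Pdgfrb, the receptor of pericytes and some fibroblasts, was at 1.34 and 1.46 FPKM, a fold of 1.09 (0.775 to 1.55). With the shortest annotated Pdgfra transcript its interval was 1.2 to 380, which overlapped that of Pdgfrb. Vim, the intermediate filament vimentin of mesenchymal and blood cells, was at 6.56 and 11.0 FPKM (1.68-fold, 1.34 to 2.09). Thy1, a surface protein of fibroblasts and also of T cells, was at 2.28 and 3.95 FPKM (1.73-fold, 1.12 to 2.65). Pdpn, podoplanin, rested on about 4 and 7 fragments.

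Among matrix proteases and inhibitors, Mmp2, the gelatinase of mesenchymal cells, was at 0.217 and 1.26 FPKM, 5.78-fold higher (2.41 to 16.8). Mmp14, the membrane protease that activates it, was at 5.11 and 4.92 FPKM, a fold of 0.963 (0.741 to 1.25). The inhibitor gene Timp2 was at 0.751 and 1.59 FPKM (2.12-fold, 1.30 to 3.55). Timp1 was at 0.302 and 1.02 FPKM, on about 2 and 7 fragments with an interval that spanned 1, as did that of Timp3 at 0.459 and 0.618 FPKM.

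**Figure D3:**
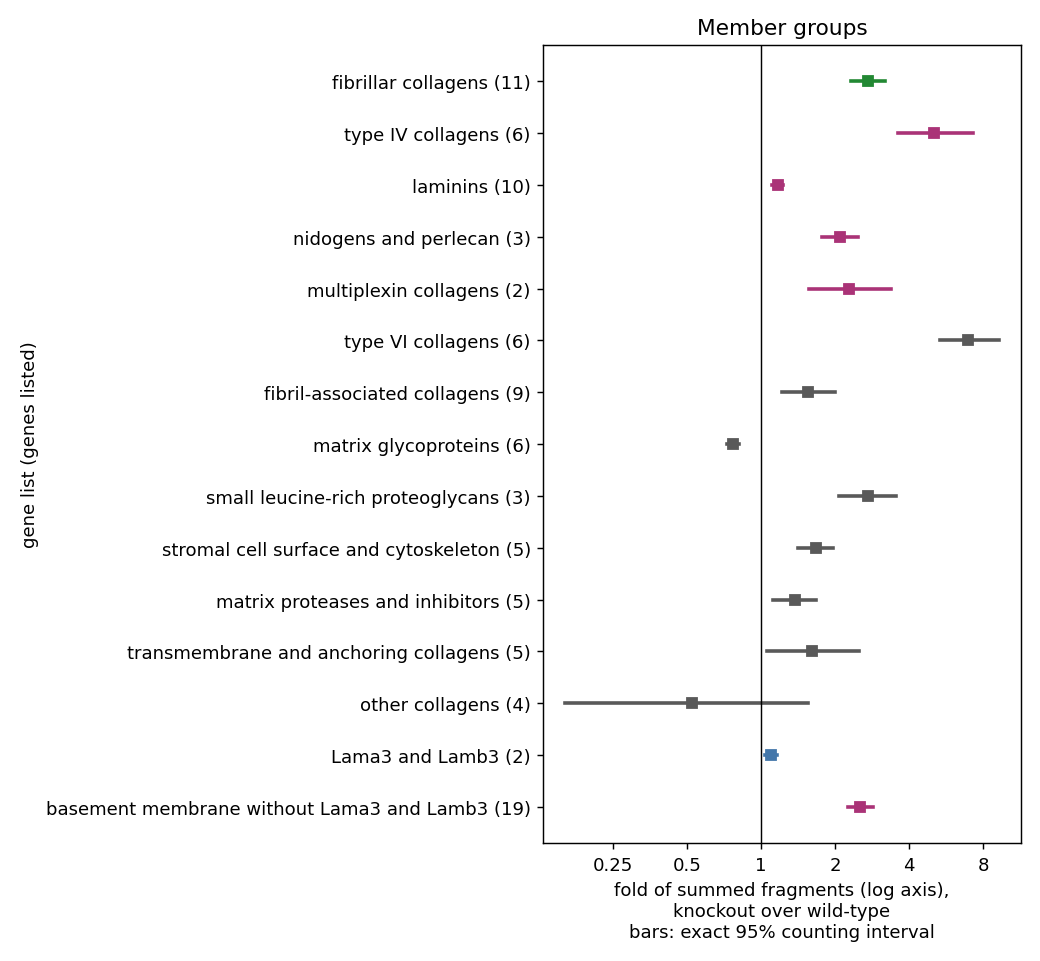
Fold of summed fragments, knockout over wild-type library, on a log axis for each group of the 75 genes, with exact 95% counting intervals; the last 2 rows split the basement membrane genes. Type VI collagens lie highest at 6.96, Lama3 and Lamb3 lie at 1.1, and matrix glycoproteins lie below 1 at 0.772 because Fbln1 holds most of that sum.

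Other genes of the matrix pathway were read from 5 lists of genes outside the 75, whose median log2 ratios lay between 0.03 and 0.11. Their counts are read against the shares of all listed genes given above, 11.1% with intervals above 1 and 15.8% below, and against those of all genes at 1 FPKM or more in either library, 19.7% and 30.9%. Of 28 genes that process and cross-link collagen, 5 (17.9%) had counting intervals above 1 and 2 (7.14%) below, so the share above lay within the range of these backgrounds. Serpinh1, the collagen chaperone HSP47, was the 1 gene among them that was 2-fold higher on the log2(FPKM + 1) scale, at 0.913 and 3.32 FPKM (3.64-fold, 2.14 to 6.5). P4hb, a subunit of prolyl 4-hydroxylase that also folds other secreted proteins, was the most abundant at 1439 and 1405 FPKM. Of 24 matrix receptor genes, 8 (33.3%) were above and 6 (25%) below. Itga6, the integrin alpha chain that binds laminins in hemidesmosomes, was at 30.4 and 60.1 FPKM (1.97-fold, 1.84 to 2.12), and the collagen receptor gene Ddr1 was at 61.2 and 41.5 FPKM. Of 20 TGF-beta signalling genes, 6 (30%) were above and 2 (10%) below, among them Ltbp4, a latent TGF-beta binding protein, at 0.524 and 1.55 FPKM, and Tgfbi, a TGF-beta induced matrix protein, at 254 and 141 FPKM. Of 26 further protease and inhibitor genes, 3 (11.5%) were above, a share near the background, and 1 (3.85%) below: Mmp10 was at 0.341 and 2.62 FPKM and Mmp15 at 28.0 and 12.3. Of 33 other matrix glycoprotein and proteoglycan genes, 8 (24.2%) were above and 3 (9.09%) below, with Sparcl1, a relative of Sparc, at 0.282 and 2.17 FPKM.

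Markers of several non-epithelial cell types were higher in the same library as the stromal matrix genes; their counts have the same background shares. Of 12 smooth muscle markers, 11 (91.7%) had counting intervals above 1 and none below. Actg2, an actin of enteric muscle, was at 0.463 and 6.87 FPKM (14.8-fold, 6.02 to 38.2), and Des, the muscle filament desmin, at 0.581 and 5.85 (10.1-fold, 5.94 to 17.8). Acta2, smooth muscle actin, was at 1.3 and 8.04 FPKM (6.16-fold, 3.95 to 9.82), and Myl9, a myosin light chain, at 0.117 and 4.74, on about 1 and 42 fragments (40.5-fold, 6.88 to 1636). The sum of the 12 went from 46.9 to 87.8 FPKM, of which Mylk, 1.24-fold higher, gave 36.9 and 45.9. Without Mylk, which was set aside with its values known, the other 11 went from 9.99 to 41.9 FPKM, 4.19-fold, and 3.93-fold in summed fragments (3.39 to 4.57). That was above the 2.36-fold of summed fragments over the 75 genes without Fbln1, Lama3 and Lamb3. Both values depend on genes set aside with their values known. With no gene set aside, the folds of summed fragments were 1.46 (1.39 to 1.53) for the 12 markers and 1.2 (1.16 to 1.24) for the 75 genes. Lmod1 was at 0 in WT and rested on about 6 fragments in KO. Of 12 endothelial markers, 6 (50%) were above and 1 (8.33%) below, with sums of 6.04 and 12.2 FPKM. The 1 below was Tek, at 1.02 and 0.156 FPKM on about 44 and 7 fragments, a fold of 0.153 (0.0582 to 0.343). Kdr and Emcn were at 0 in WT and rested on about 7 fragments each in KO. All 6 pericyte markers had log2 ratios above 0, as had 33.4% of all listed genes and 55.5% of those with a mean of 0.1 to 10 FPKM. Of the 6, 3 (50%) had intervals above 1, and those of Kcnj8, Notch3 and Abcc9 spanned 1. Their sums were 1.26 and 3.15 FPKM, and Rgs5 was at 0 in WT. Of 8 macrophage markers 4 (50%) were above and none below, with sums of 26.3 and 46.0 FPKM. Mesothelial markers other than Krt19, which epithelium shares, included Msln at 0.699 and 2.07 FPKM and Upk3b at 1.23 and 1.24. Of 8 lymphocyte markers 2 (25%) were above and 2 (25%) below, with sums of 316 and 327 FPKM. Of 8 enteric glia and neuron markers none was above and 1 (12.5%) below, and 2 were at 0 in both libraries. The part of these cell types in the matrix differences was not tested.

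The epithelial markers of the labelled tissue were abundant in both libraries. The 12 of them summed to 28539 FPKM in WT and 26358 in KO, with 5 intervals above 1 (41.7%) and 5 below (41.7%). Fabp2 alone gave 65.9% of the sum in WT and 60.4% in KO. Single markers ranged from Cdx2, at 124 and 64.8 FPKM (a fold of 0.522, 0.488 to 0.558), to Krt20, at 1721 and 2287 (1.33, 1.31 to 1.35).

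**Figure D4:**
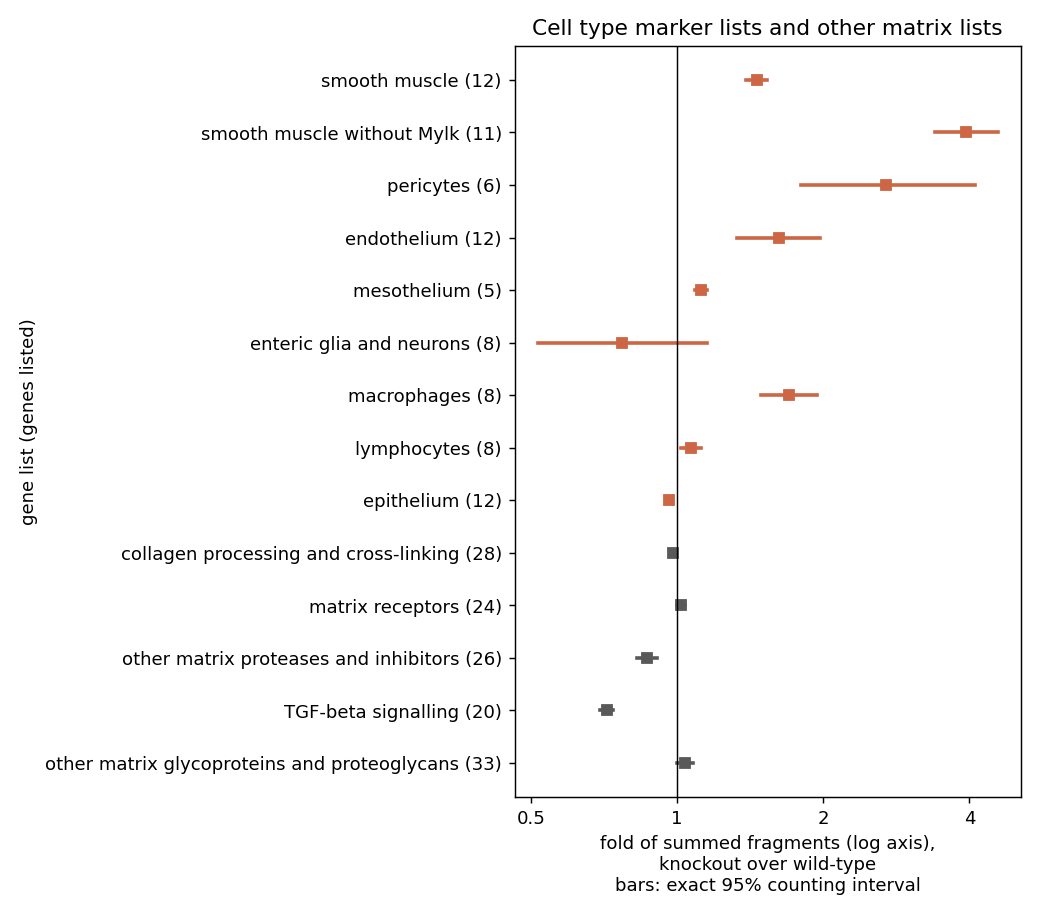
Fold of summed fragments, knockout over wild-type library, on a log axis with exact 95% counting intervals, for marker lists of cell types (upper 9 rows) and for lists of other matrix genes (lower 5 rows). Smooth muscle markers lie at 1.46 with Mylk and at 3.93 without it, pericyte markers at 2.69, endothelial and macrophage markers at 1.62 and 1.70, and epithelial markers at 0.964.

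Sequence features that the choice by name did not use were read from the annotation. The knockout removes miR-215, so its mature sequence is shown with that of miR-192, which has the same seed, and with miR-29a, whose family is known for targeting collagen mRNAs. Capitals mark the seed, bases 2 to 8, and the sequences are RefSeq entries on GRCm38.p6.
miR-215-5p: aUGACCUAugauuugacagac
miR-192-5p: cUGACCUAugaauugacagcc
miR-29a-3p: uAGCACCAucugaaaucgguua
The search used the 7 bases that pair with each seed, TAGGTCA for miR-215 and miR-192 and TGGTGCT for miR-29a, on the transcript strand of the longest annotated 3' UTR of each gene.

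The miR-215 match was present in 6 of the 75 genes (8%), against 6.5% of 19849 listed genes with an annotated 3' UTR. Of the 6, Bgn, Sparc and Col6a2 were at least 2-fold higher on the log2(FPKM + 1) scale. So were 6 of all 75 genes (8%) and 0.661% of all listed genes, many of which were at 0 in both libraries. The share past 2-fold was not computed for listed genes with the match. The median log2 ratio was 0.68 over the 6 genes with the match and 0.24 over those without. The 0.68 fell in a gap between Col5a1 at 0.18 and Bgn at 1.19. Over the collagen genes alone the medians were 0.18 and 0.10. Both were 0.00 over all listed genes with a 3' UTR, which include genes at 0 in both libraries. A part of the lost miR-215 in these differences was not tested. Col5a1 and Timp3 had intervals that spanned 1, and Col25a1 rested on 3 fragments in each library. The match of Bgn at chromosome X, 73495348 to 73495354, that of Sparc at chromosome 11, 55395043 to 55395049, and that of Col6a2 at chromosome 10, 76598606 to 76598612, are shown because these genes were past 2-fold on that scale, with 10 bases on each side and the match in capitals.
Bgn: tctctggaccTAGGTCAtatttctcca
Sparc: cttagtagccTAGGTCAaggaaagaca
Col6a2: tcatacccacTAGGTCAaagtcccagt
The other 3 genes past 2-fold on the log2(FPKM + 1) scale, Col6a1, Col3a1 and Col4a1, had no such match. A match is a description of the letters and not a measured target site.

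The miR-29 match was the commoner of the 2 among the collagens. It was present in 24 of the 43 collagen genes (55.8%), in 5 of the other 32 (15.6%) and in 13.6% of all listed genes with a 3' UTR, and it occurred 0.643 times per kb of collagen 3' UTR against 0.107 times per kb over all. The collagen UTRs were of ordinary length, with a median of 1016 nt against 1001 nt. Both layers of matrix carried it, as these examples of a fibrillar, a type IV and a type VI chain show.
Col1a1: aaggaatttcTGGTGCTatagaagctg
Col3a1: aatgtctcaaTGGTGCTataataaata
Col4a1: cgtcacaacaTGGTGCTactccccccc
Col6a3: cctgtcaataTGGTGCTaaatgtgtct
These lie at chromosome 11, 94952538 to 94952544, at chromosome 1, 45348982 to 45348988, at chromosome 8, 11199762 to 11199768, and at chromosome 1, 90767412 to 90767418. The median log2 ratio was 0.14 over collagen genes with the match and 0.10 over those without, and Col6a1, the highest of them, had none. miR-29 itself is not measured by these libraries.

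**Figure D5:**
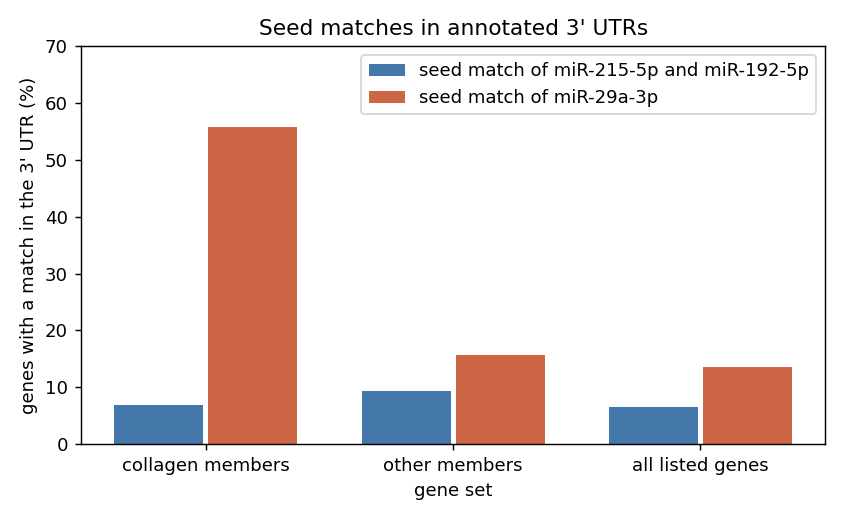
Percentage of genes with a 7-base seed match in the longest annotated 3' UTR, for 43 collagen genes, the other 32 genes and all 19849 listed genes with a 3' UTR. The miR-29a match stands at 55.8% of collagen genes against 13.6% of all genes, and the miR-215 match at 6.98% against 6.5%.

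Promoters were available for 55 of the 75 genes, and the 250 bases before the RefSeq start were searched on both strands. GGGCGG, the core of the Sp1 site, was present in 58.2% of the 55 and in 32.9% of all 27025 promoters, while the median GC content was 58.8% and 52.0%. CCAAT was present in 32.7% and 34.5%, TATAAA in 10.9% and 13%, and TGANTCA, the AP-1 site, in 1.82% and 6.87%. The single promoter with TGANTCA was that of Col6a1, at a GC content of 56%. The promoter of Col3a1 (chr1:45311288-45311537, plus strand, GRCm38.p6), the fibrillar gene of highest log2 ratio, is shown as a contrast to the GC-rich majority: its GC content was 35.2%, and it held TATAAA, in capitals, and none of the other motifs.
Col3a1: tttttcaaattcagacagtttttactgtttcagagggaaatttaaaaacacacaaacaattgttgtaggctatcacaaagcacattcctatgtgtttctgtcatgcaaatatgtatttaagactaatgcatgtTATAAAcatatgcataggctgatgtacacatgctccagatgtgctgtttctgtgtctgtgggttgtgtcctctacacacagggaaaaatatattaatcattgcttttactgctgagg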

How the data were processed

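Per the labels' protocols, libraries came from column-purified total RNA and a TruSeq kit that selects mRNA and keeps strand. The deposited values are FPKM made by the authors; no header names the unit, which was inferred from Cuffnorm and the values. Per the submitters' processing notes, TopHat2 2.0.13, Bowtie2 2.2.3, SAMtools 0.1.19, Cuffnorm 2.2.1 and the build mm10 were used; the sources used here give no settings or annotation.

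The worth of 1 fragment over 1 kb was 0.112 FPKM in WT and 0.107 in KO, estimated from 879 low values of both libraries in genes with a single annotated coding transcript and from the KO to WT ratio of 0.963 that 246 of 602 low genes shared. Fragments were estimated with the median GENCODE M21 transcript length, and under 60 fragments as the nearest whole-number pair whose ratio matched the values within 0.2%. The code was tested on simulated data. The rule by name finds 76 genes, of which 1 is not reported here; the other 75 had a length. No filter on low values was used. The members and lists were chosen with earlier results of these data known. Every gene of the 75 at 1 FPKM or more, and every basement membrane or fibrillar gene, is named. From the other lists, genes were named among the 4 of largest log2 ratio and the most abundant. Epcam, Upk3b, Kcnj8, Notch3 and marker genes at 0 in WT are named besides. Python 3.11.15, pandas 2.3.3, NumPy 2.4.6, SciPy 1.17.1 and matplotlib 3.10.9 were used.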

Additional observations from a re-analysis of the deposited data

How the results depend on the processing

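The pseudocount decided how many genes passed 2-fold: 30 of the 75 were higher with 0.1, where 4.43% of all listed genes were, and 0 with 5, where 0.258% were. The median log2 ratios of all members, basement membrane genes and fibrillar genes were 0.71, 0.83 and 0.81 with 0.1 and 0.06, 0.08 and 0.06 with 5. With a minimum mean of 1 FPKM, which keeps fewer genes, the same medians were 0.63, 0.45 and 0.84, and the basement membrane fold was 1.11 in summed FPKM and 1.2 in summed fragments. Equal sums of FPKM moved the median log2 ratio of genes at 1 FPKM or more from -0.05 to 0.07 and the basement membrane fold of fragments to 1.42; equal upper quartiles gave 1.39. Under both scalings 9 genes were 2-fold higher, with 0.898% and 0.799% of all listed genes, the intervals of Col12a1 and Lamb2 lay above 1 and that of Lamb3 spanned 1, and Mmp14, whose interval spans 1, changed direction. Without the most abundant gene of each group the basement membrane fold was 1.54 in FPKM and 1.53 in fragments, the fibrillar fold 2.19 and 2.18, and their quotient in FPKM 0.702 against 0.432. Without Lama3 and Lamb3, an alternative chosen after seeing the data, the basement membrane fold was 2.43 in FPKM and 2.53 in fragments and the quotients were 0.879 and 0.93. Except for Col4a5, at 0 in WT, the single folds are ratios of FPKM that do not depend on transcript length. The shortest or longest transcript could thus move only fragment numbers and counting intervals. None of the 57 intervals changed between above, below and spanning 1, and that of Pdgfra widened to 1.2 to 380 with the shortest. No paired analysis was possible because each genotype has 1 library, so no library could be left out either.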
